A study of Mus musculus with 139 samples.

Results

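The rows Mir15a, Mir16.1, Mir15b and Mir16.2 count the precursor genes of a pair of mouse microRNA clusters, Mir15a with Mir16-1 and Mir15b with Mir16-2. They were chosen by name from a table of small non-coding RNA genes and make up 4 of its 6114 rows, of which 2207 are classed as microRNA. The study sequenced small RNA from bulk tissue of adult wild-type mice of the inbred strain C57BL/6J, aged 3 months and left untreated. The 134 libraries came from 14 animals, of which numbers 1 to 10 were female and numbers 11 to 14 male. The groups are the tissues: bone marrow, intestine and pancreas (12 libraries each), heart, liver and lung (13 each), brain, kidney, muscle and spleen (14 each), and testis (3). Each library is 1 tissue of 1 animal, so libraries of different tissues share animals.

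MicroRNAs are cut from hairpin precursors, and the mature strand guides Argonaute proteins to messenger RNAs, pairing mainly through its seed. The miR-15 and miR-16 microRNAs share a seed and are known for repressing cyclins, other drivers of cell division and the survival factor Bcl2. The Mir15a and Mir16-1 genes lie in Dleu2, whose human counterpart is often deleted in chronic lymphocytic leukaemia.

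The mature 5p sequences below show what the members share and where a read can no longer be told apart. They were taken from RefSeq (GRCm38.p6), run 5′ to 3′, and carry the seed, bases 2 to 8, in capitals.
miR-15a-5p (Mir15a): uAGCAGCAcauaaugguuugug
miR-15b-5p (Mir15b): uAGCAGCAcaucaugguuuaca
miR-16-5p (Mir16.1 and Mir16.2): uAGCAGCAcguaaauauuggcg
miR-195a-5p (Mir195a): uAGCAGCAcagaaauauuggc
miR-497a-5p (Mir497): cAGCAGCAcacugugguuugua
miR-322-5p (Mir322): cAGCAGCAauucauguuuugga
miR-503-5p (Mir503): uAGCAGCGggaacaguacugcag
The seed AGCAGCA was carried by 11 of the 1738 mature entries of the RefSeq table, and all 4 members were matched there. miR-15a and miR-15b differed at 4 of 22 positions, miR-15a and miR-16 at 6, and miR-15b and miR-16 at 8, with no difference inside the seed. miR-16 and miR-195a, its closest relative among the listed sequences, differed at 2 of 21 positions. miR-503 differed from the others at 1 seed position.

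The hairpins of both Mir16 genes are shown because their mature arm, in capitals, is one sequence while the flanks are not.
Mir16-1: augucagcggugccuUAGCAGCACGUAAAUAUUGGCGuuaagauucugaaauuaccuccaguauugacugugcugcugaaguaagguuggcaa
Mir16-2: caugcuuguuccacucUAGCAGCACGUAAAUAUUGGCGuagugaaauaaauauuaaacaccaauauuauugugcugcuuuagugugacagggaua
The run of identical bases around the mature arm was 23 bases long, so a read of the mature 5p strand matches both genes. In the GRCm38 annotation, Mir15a lies on chromosome 14 at 61632027 to 61632110 and Mir16-1 at 61631880 to 61631972, 54 bases apart on the minus strand. Both sit inside the non-coding gene Dleu2 on the same strand. Of its 15 transcripts, 8 span the hairpins, with an exon over Mir16-1 in 1 transcript and over Mir15a in none. Mir15b lies on chromosome 3 at 69009772 to 69009835 and Mir16-2 at 69009902 to 69009996, 66 bases apart on the plus strand. They sit in introns of Smc4, which encodes a condensin subunit used in mitotic chromosome compaction: 5 of its 11 transcripts span them and none has an exon there.

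The libraries held between 10255 and 34095704 counts (median 6327550), and 6 of the 8 libraries under 100000 counts were pancreas. The tissues of animals 1 to 10 were sequenced in pools N467 (liver, spleen, kidney, pancreas and lung) and N469 (brain, muscle, intestine, heart and bone marrow). Those of animals 11 to 14 were in pool N541, so the pool, the animal set and the sex cannot be told apart. Brain, striated muscle, liver, pancreas, intestine, lung and kidney marker microRNAs were highest in the tissues they are named for, by the median of their summed level. In the 3 libraries labelled testis, 6 of 7 testis markers were at 0 in every library, so their label went against the data. The library Pancreas 11 held intestine markers at 100731 CPM, against at most 21.7 CPM in the other 11 pancreas libraries. All levels below are CPM, a count divided by the library total and scaled to 1000000.

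The miR-16 rows were the abundant ones. Over all libraries Mir16.1 held 3038637 counts and Mir16.2 2968933, against 241928 for Mir15b and 187734 for Mir15a. The mature 5p forms are each 22 bases long, so these counts were set side by side with no length correction. Together the 4 rows took a median of 1.87% of all counts in bone marrow, 1.16% in spleen and 0.0638% in pancreas. These sums may hold the same miR-16 reads in both miR-16 rows; with Mir16.2 left out the shares were 1.01%, 0.646% and 0.0453%. Among the 10 rows of the miR-15/16 seed family and its listed relatives, the 4 members held a median of 93.8% of the counts in liver, 93.5% in bone marrow and 69.3% in lung. With Mir16.2 left out these shares were 89.0%, 88.8% and 54.5%. By either set of medians they held most of the family's reads in every tissue, and least in lung.

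Mir16.1 and Mir16.2 gave nearly the same count in each library. The ratio of Mir16.2 to Mir16.1 had a median of 0.978 and ran from 0.5 to 1.15. It lay within 5% of 1 in 109 of 134 libraries and within 10% in 121, and Mir16.2 was the lower row in 117. The libraries outside 10% were 10 of the 12 pancreas libraries and 3 of the 13 liver libraries. Pancreas Mir16.1 counts had a median of 28, and the lowest library held 2. The liver libraries, replicates 7, 8 and 10, held 7526, 9248 and 7220 Mir16.1 counts, with ratios of 0.887, 0.892 and 0.893. Since the mature strand is shared, the counts do not show how much each locus made, and the rows are uncertain as separate measurements: how the authors assigned reads that match several genes is not given in the sources used here.

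**Figure D1:**
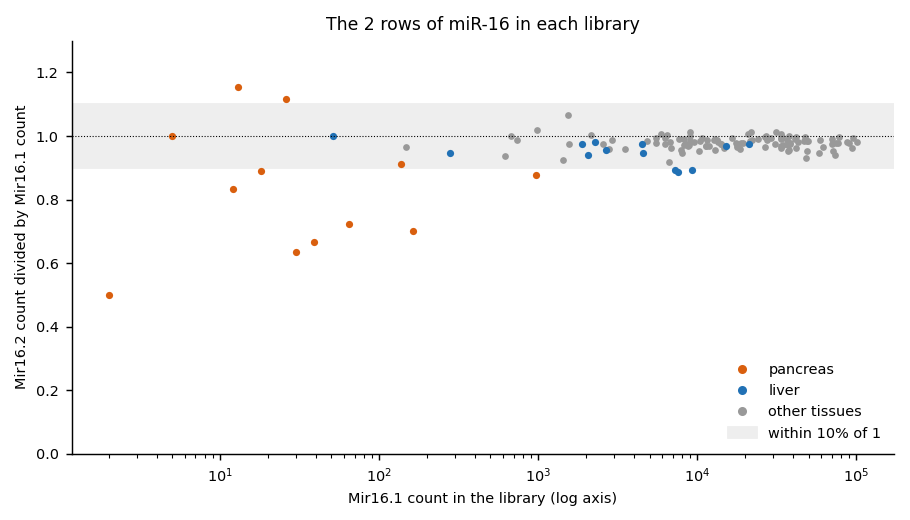
Ratio of Mir16.2 to Mir16.1 counts (y axis, linear) against the Mir16.1 count (x axis, log scale), with 1 point per library. Most points lie close to 1, and the extremes of 0.5 and 1.15 are pancreas libraries.

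Levels across tissues were highest in bone marrow and spleen for each of the 4 rows. In bulk tissue, fewer cells of a type and less RNA per cell cannot be told apart. Mir16.1 averaged 7971 CPM ± 3287 (SD, n = 12) in bone marrow, with a lowest, median and highest library of 2862, 8614 and 13356 CPM. In spleen Mir16.1 averaged 6631 CPM ± 3633 (SD, n = 14), with libraries from 3745 through a median of 5327 to 17726 CPM. The bone marrow and spleen ranges overlapped over most of their width. Below them came brain at 4385 CPM, heart at 3664, liver at 3155, lung at 2488, kidney at 1689 and muscle at 1314. The libraries labelled testis averaged 1195 CPM, intestine 1011 and pancreas 468.9, which made the highest tissue mean 17 times the lowest. Mir16.2 followed the same order of tissues.

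**Figure D2:**
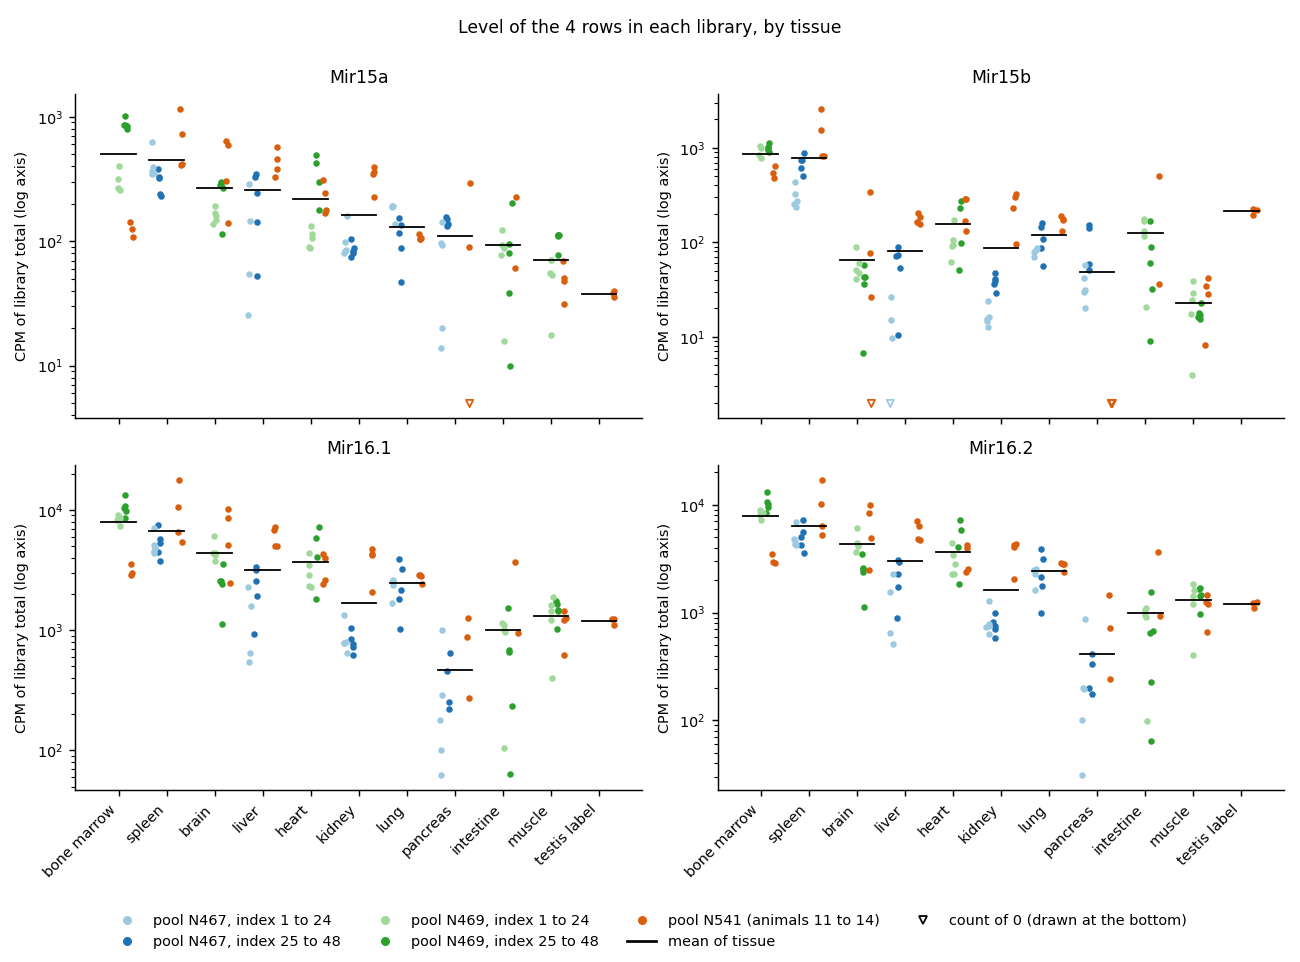
Level of each member in every library (y axis, CPM of the library total, log scale) by tissue (x axis), 1 panel per row, coloured by sequencing pool and index set, with the tissue mean as a bar and triangles for counts of 0. Bone marrow and spleen lead in all 4 panels, pancreas is last for both miR-16 rows, the libraries labelled testis are last for Mir15a and muscle is last for Mir15b.

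Mir15a, the partner of Mir16-1, spanned 13.2-fold between tissue means. It averaged 499 CPM ± 344 (SD, n = 12) in bone marrow, where libraries ran from 108 through 360 to 1015 CPM. In spleen it averaged 451 CPM ± 245 (SD, n = 14), with 230, 372 and 1166 CPM as the lowest, median and highest. Bone marrow was thus no tighter a group than spleen, and its libraries fell into separate levels described below. Brain (267 CPM), liver (259) and heart (217) followed, then kidney (162), lung (129), pancreas (111), intestine (92.5) and muscle (71.0). The 3 libraries labelled testis were the lowest group, at 35.7, 38.1 and 39.9 CPM.

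Mir15b, the partner of Mir16-2, was the most tissue-dependent member, with a 38.1-fold span between tissue means. Bone marrow averaged 860 CPM ± 211 (SD, n = 12), with libraries from 475 through 925 to 1138 CPM. Spleen averaged 773 CPM ± 635 (SD, n = 14), from 238 through 673 to 2613 CPM. The libraries labelled testis came next at 194, 221 and 223 CPM, although they were the lowest group for Mir15a. Heart (158 CPM), intestine (126), lung (119), kidney (87.7), liver (81.6), brain (65.7) and pancreas (48.7) followed. Muscle was last at 22.6 CPM ± 11.1 (SD, n = 14), with libraries from 3.92 through 20.2 to 42.1 CPM, all below the lowest bone marrow or spleen library.

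Counts of 0 occurred in shallow libraries. Mir15a was at 0 in Pancreas 13, where 3 counts would be 217 CPM. Mir15b was at 0 in Brain 11, Liver 5 and Pancreas 11, 12 and 13, where 3 counts would be 174, 38.0, 293, 45.3 and 217 CPM. At those depths the tissue's usual level was not detectable in most of these libraries, and such limits cover counting error only.

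The members were then compared between each tissue and the unweighted mean of the other 10, with edgeR's quasi-likelihood test on library totals, pool as a covariate and Benjamini-Hochberg adjustment over the 1268 genes tested. A call needed an adjusted p under 0.05 and a log2 fold change of at least 1. All 4 members passed the low-count filter. Over 44 combinations of member and tissue, 9 were higher and 13 lower. Over all combinations of the 1268 genes and the 11 tissues, 3104 were higher and 2427 lower.

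In spleen all 4 rows were higher. Mir15b rose most, by 3.18 ± 0.29 log2 (SE, adjusted p = 1.32e-18). Mir15a was higher by 1.98 ± 0.26 (adjusted p = 7.33e-11), Mir16.1 by 2.18 ± 0.25 (1.39e-13) and Mir16.2 by 2.20 ± 0.25 (9.75e-14). The same call was made for 41.9% of all genes in spleen, and the median gene stood 0.71 log2 above the other tissues, so the members lay 1.27 to 2.47 log2 above that median. With TMM scaling, which sets the bulk of genes level between libraries, the spleen median was 0.02 and the 4 rows were still higher, Mir15b by 2.46, Mir15a by 1.31, Mir16.1 by 1.43 and Mir16.2 by 1.44 log2, against 19.7% of genes.

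In bone marrow all 4 rows were also called higher on library totals, as were 51.0% of all genes, around a median gene of 1.11 log2. Mir15b stood at 2.90 ± 0.32 (SE, adjusted p = 3.92e-14), Mir15a at 1.49 ± 0.31 (1.18e-05), Mir16.1 at 1.73 ± 0.28 (4.26e-08) and Mir16.2 at 1.74 ± 0.28 (3.24e-08). Under TMM the median gene was at 0.22 and only Mir15b was still called higher, at 1.95 ± 0.31 (adjusted p = 2.14e-08), against 28.6% of genes. Mir15a then stood at 0.39 (adjusted p = 0.203), Mir16.1 at 0.73 (0.0186) and Mir16.2 at 0.75 (0.0145). The miR-16 rows thus passed the adjusted p without reaching the fold. The Mir15a, Mir16.1 and Mir16.2 calls in bone marrow therefore depended on the scaling, and that of Mir15b did not.

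Markers of blood cells were high in the same tissues. All 4 leukocyte microRNAs (Mir142, Mir223, Mir150 and Mir155) were called higher in bone marrow and in spleen, against 51.0% and 41.9% of all genes, and none was at 0 there. Their summed level had a median of 22363 CPM in bone marrow (8040 to 37948) and 27782 CPM in spleen (19555 to 41596), against medians of 258 to 2667 CPM elsewhere. The 3 erythroid microRNAs (Mir451a, Mir144 and Mir486) were called higher in bone marrow, spleen and heart (11.6% of genes were higher in heart), with medians of 155637, 51018 and 140523 CPM. In muscle, where the members were lower, their median was 64968 CPM, above that of spleen. There 1 of the 3 was called higher and 2 lower, with a median of -2.25 log2, where 169 of 1268 genes were higher and 25.8% lower. The summed level in muscle thus does not stand for all 3 erythroid microRNAs. The part of the blood cell markers in the members' levels was not tested.

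**Figure D3:**
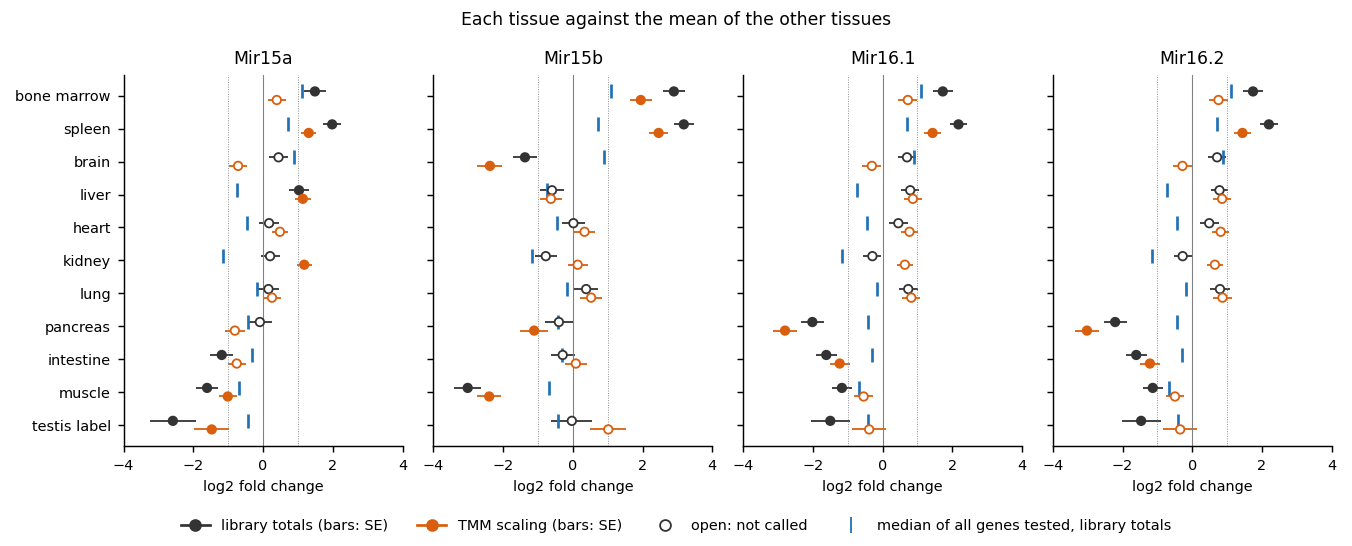
Log2 fold change of each member in each tissue against the mean of the other 10 (points, with SE bars), on library totals and with TMM scaling, with a blue tick at the median of all genes on library totals; open points were not called. Spleen rows and Mir15b in bone marrow stand right of the tick under both scalings, and Mir15b in brain and muscle stands left of it.

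Muscle, where Mir15b was lowest, gave a log2 fold change of -3.02 ± 0.38 for Mir15b (SE, adjusted p = 1.22e-11) and of -1.61 ± 0.32 for Mir15a (9.24e-06). Mir16.1 and Mir16.2 stood at -1.17 and -1.14. All 4 were called lower, as were 25.8% of genes, around a median gene of -0.68. With TMM the Mir15b and Mir15a calls held, at -2.40 and -1.01, against 12.0% of genes, and the miR-16 rows stood at -0.54 and -0.50 with no call. In animals 1 to 10 alone the Mir16.1 muscle value was -0.57, also with no call.

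In brain, Mir15b alone was lower, at -1.37 ± 0.34 (SE, adjusted p = 2.16e-04), where 9.94% of genes were lower and the median gene stood at 0.89. Mir15a (0.44) and the miR-16 rows (0.70 and 0.71) were not called there. With TMM Mir15b stood at -2.38 in brain, against 24.4% of genes. In animals 1 to 10 alone Mir15b was lower at -1.04 log2 (adjusted p = 0.00243). Within pool N541 the direction turned, to 0.54 ± 2.26 (SE, adjusted p = 0.926). With the pancreas libraries of that pool left out, a setting chosen after seeing the data, it stood at -0.88 (adjusted p = 0.149).

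In intestine the miR-16 rows were both lower at -1.61 log2 (adjusted p = 2.65e-06 and 2.72e-06), Mir15a was lower at -1.19 ± 0.32 (SE, adjusted p = 0.00122), and Mir15b was not called at -0.29. Of all genes 18.1% were lower. With TMM the miR-16 calls held at -1.23 and -1.22, against 11.6% of genes, and Mir15a stood at -0.75 with no call. The Mir15a intestine value was -0.84 without Intestine 5, 6, 9 and 10, again with no call. In pool N541, with 2 intestine libraries, no member was called there.

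In pancreas the miR-16 rows were lower at -2.01 ± 0.33 and -2.21 ± 0.33 (SE, adjusted p = 1.06e-07 and 7.17e-09), against 10.3% of genes, while Mir15a (-0.09) and Mir15b (-0.40) were not called. With TMM, Mir15b was also lower at -1.11 (adjusted p = 0.0185) and the miR-16 rows stood at -2.80 and -3.02, against 23.5% of genes. These libraries were shallow, with a median Mir15a count of 6.5 and a median Mir15b count of 5.

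In the libraries labelled testis, Mir15a was lower at -2.59 ± 0.66 (SE, adjusted p = 0.00167), where 12.0% of genes were lower, and at -1.47 with TMM, against 5.36% of genes. Mir16.1 and Mir16.2 were called lower at -1.5 and -1.47 (adjusted p = 0.0435 and 0.0476). Both calls were lost when any 1 of the 3 libraries, replicates 11, 12 or 13, was left out and under TMM, where they stood at -0.39 and -0.35. Mir15b stood at -0.03 and was not called. With testis markers at 0, these values describe the libraries as labelled and not a checked testis.

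In liver, Mir15a alone was called higher, by 1.03 ± 0.27 log2 (SE, adjusted p = 0.0012), against 8.44% of genes. With TMM it was at 1.14, against 9.94% of genes. With the animal as a replicate block it stood at 0.96 and was not called, and the value was 0.15 in animals 1 to 10 against 1.48 within pool N541. In heart, kidney and lung no member was called, where 29.7%, 45.3% and 31.2% of genes were called in either direction by the edgeR test. Mir16.1 and Mir16.2 in lung (0.74 and 0.79 log2) and Mir15b in kidney (-0.78) passed the adjusted p without reaching the fold. With TMM, Mir15a alone was called higher in kidney, at 1.18 (adjusted p = 2.39e-06), against 14.0% of genes. In animals 1 to 10 alone both miR-16 rows were called higher in heart, Mir16.1 by 1.04 and Mir16.2 by 1.12 (adjusted p = 2.21e-04 and 7e-05), against 11.7% of genes. In kidney the same animals gave lower calls for Mir15b at -1.92, Mir16.1 at -1.39 and Mir16.2 at -1.37, against 43.9% of genes. With DESeq2's Wald test the Mir16.1 lung value was 1.09 and the Mir16.2 lung value 1.13, both called higher, against 20.4% of genes.

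Neighbours in each member's order of mean CPM were tested in the same fit, and 8 of 40 pairs differed. Spleen exceeded brain for Mir15a by 1.40 log2 (edgeR adjusted p = 0.0017), for Mir16.1 by 1.34 and for Mir16.2 by 1.35, where 65.6% of genes differed. Lung exceeded kidney for Mir16.1 by 0.93, Mir16.2 by 0.97 and Mir15b by 1.05, where 57.5% of genes differed. For Mir15b, spleen exceeded the libraries labelled testis by 2.92, against 36.6% of genes, and pancreas exceeded muscle by 2.38, against 32.7%. Pancreas and muscle share only pool N541, where Mir15b was at 0 in every pancreas library and averaged 28.4 CPM in muscle. Those pancreas libraries were shallow, with 3 counts standing for 45.3 to 293 CPM. The fitted 2.38 therefore leans on the pool term, and no shared pool shows pancreas above muscle. With TMM 3 of the 8 pairs were still called, those of spleen over brain, by 1.84 for Mir15a, 1.58 for Mir16.1 and 1.56 for Mir16.2, against 67.0% of genes. The other 5 were lost. Lung then exceeded kidney for Mir16.1 by 0.17 (adjusted p = 0.718), for Mir16.2 by 0.20 (0.651) and for Mir15b by 0.35 (0.478). For Mir15b, spleen stood 1.31 above the libraries labelled testis (adjusted p = 0.146) and pancreas 1.17 above muscle (0.0597). Another 10 pairs were called with TMM alone. On library totals the other 32 pairs did not differ beyond their spread. Bone marrow and spleen were among them for all 4 rows, so their order is not settled, and for Mir15a the fitted difference was -0.45 ± 0.45 (SE) although the bone marrow mean was the higher.

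The balance of the clusters was read from ratios of counts within a library, which do not depend on how libraries are scaled. Ratios were taken with 0.5 added to each count and compared between a tissue and all other libraries by a two-sided permutation test, adjusted over 55 tests. This test shuffled libraries with no term for pool, index set or animal, so its p does not separate tissue from these. The libraries labelled testis were all in pool N541, while most of the libraries they were set against were in other pools. The Mir15b to Mir15a ratio was called in 6 of 11 tissues. It was highest in the libraries labelled testis, at 2.49 ± 0.06 log2 (SD, n = 3), which is 5.60 Mir15b counts for each Mir15a count. Bone marrow followed at 1.14 ± 0.88 (SD, n = 12) and spleen at 0.58 ± 0.80 (SD, n = 14). All 3 stood above the other libraries, by 3.24 log2 in the libraries labelled testis (exact permutation, adjusted p = 1e-04), 2.0 in bone marrow (permutation, adjusted p = 9.17e-05) and 1.40 in spleen (permutation, adjusted p = 0.00245).

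Mir15a outnumbered Mir15b most in brain, liver and muscle. The log2 ratio was -2.28 ± 1.05 (SD, n = 14) in brain, -2.0 ± 0.76 (SD, n = 13) in liver and -1.70 ± 0.85 (SD, n = 14) in muscle, or 4.86, 4.01 and 3.25 Mir15a counts for each Mir15b. Their differences from the other libraries were -1.79, -1.47 and -1.14 log2 (permutation, adjusted p = 2.44e-04, 0.0024 and 0.015). Intestine (0.18), lung (-0.14), heart (-0.45), pancreas (-0.99) and kidney (-1.51) lay between and were not called. Compared within animals by a sign-flip permutation test with the animal as the replicate block, the ratio was above the animal's other tissues in 12 of 12 bone marrow and 14 of 14 spleen libraries. It was below them in 14 of 14 brain, 14 of 14 muscle and 13 of 13 liver libraries. In that paired comparison intestine (1.06 higher), lung (0.56 higher) and kidney (-0.90) were called too, while the 3 libraries labelled testis could not be, since their exact p goes no lower than 0.25.

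**Figure D4:**
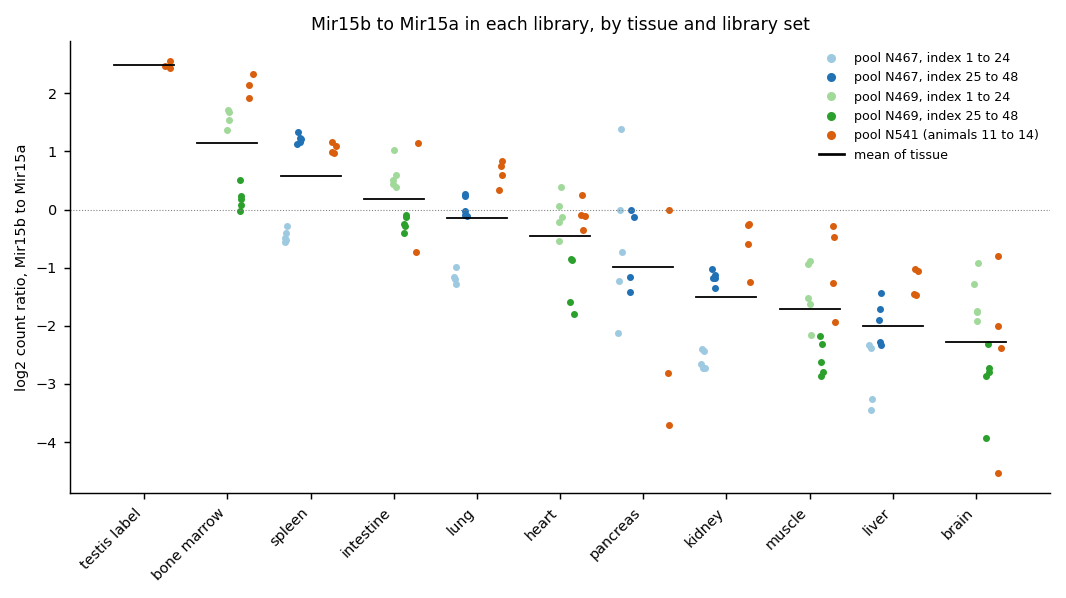
Log2 ratio of Mir15b to Mir15a counts in each library (y axis) by tissue (x axis), coloured by pool and index set, with the tissue mean as a bar. Testis-labelled libraries, bone marrow and spleen lie highest and brain, liver and muscle lowest, and index sets of 1 pool separate within a tissue.

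The libraries of 1 tissue split by their index numbers. In pools N467 and N469, animals 1 to 4 and most libraries of animal 5 carried index numbers 1 to 24. The other libraries of animals 1 to 10 carried 25 to 48. Animal 5 alone was in both sets, and apart from it index set and animal move together. In pool N469 the Mir15b to Mir15a ratio was higher in the low set: 1.57 against 0.19 in bone marrow, -1.52 against -2.92 in brain, -0.09 against -1.28 in heart, 0.59 against -0.23 in intestine and -1.42 against -2.55 in muscle. In pool N467 it was higher in the high set: 1.21 against -0.45 in spleen, 0.05 against -1.15 in lung, -1.17 against -2.59 in kidney and -1.93 against -2.85 in liver. The sets did not overlap in 8 of 10 tissues. In those tissues each library of animal 5 lay with its own index set. Bone marrow 5 stood at 0.07 in the high set and Brain 5 at -1.76 in the low set. Whether the split follows the index set or the animal was not tested. By exact permutation tests, adjusted over 50 tests, 9 of 10 tissues differed (adjusted p = 0.0233 in 8 and 0.0397 in liver), and pancreas did not. Such tests were run on ratios of the members only, so the share of other rows that split by index set is not known. The Mir16.1 to Mir15a ratio differed between index sets in 5 of 10 tissues, by up to 1.53 log2 in brain, both miR-16 rows over both miR-15 rows in 4, and Mir16.2 to Mir15b in 2. The Mir16.2 to Mir16.1 ratio differed in 0 of 10 by the same tests, and in 1 of 10 at an unadjusted p under 0.05.

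The order of tissues was kept within index sets of pool N469, where both sets ran bone marrow, intestine, heart, muscle, brain. In pool N467 both sets had spleen at rank 1, kidney at rank 4 and liver at rank 5. In pool N541, which held every tissue, the means were 2.49 in the libraries labelled testis, 2.13 in bone marrow and 1.06 in spleen, and -2.42 in brain, -1.26 in liver and -0.99 in muscle. Where index sets did not overlap, the low minus high difference ran from 0.818 to 1.40 in pool N469 and from -1.66 to -1.21 in pool N467. Called tissue differences ran from 1.40 to 3.24 for higher tissues and from -1.79 to -1.14 for lower ones.

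Bone marrow Mir15a shows the split in its levels. Animals 1 to 4 gave 269, 257, 315 and 404 CPM. Animals 5 to 9 gave 858, 837, 863, 798 and 1015 CPM, and animals 11, 13 and 14 gave 142, 108 and 127 CPM. The 3 sets did not overlap, and the second lay above the others. How many other genes split this way was not counted. Mir15b differed less, with set means of 918, 1000 and 550 CPM, as did Mir16.1 with 8330, 10584 and 3138 CPM. In animals 1 to 10 alone Mir15a was higher in bone marrow than in the other tissues by 2.12 ± 0.24 log2 (SE, edgeR adjusted p = 1.57e-13), whereas within pool N541 it stood at -0.48 ± 0.39 (adjusted p = 0.34). The bone marrow value of Mir16.1 was 2.52 in animals 1 to 10 and 0.15 in pool N541. Mir15b in bone marrow was called higher in both, at 3.77 and 2.87, and spleen was called higher in both for all 4 rows. The pool N541 values of Mir15b are set against a mean that includes pancreas, where its 3 libraries held no Mir15b count. With pancreas left out, a setting chosen after seeing the data, Mir15b in pool N541 stood at 1.47 in bone marrow (adjusted p = 0.00404). In spleen it then stood at 3.03 in place of 4.41, and both calls held. A fit with the index set as a further term, chosen after seeing the data, left the counts at 9 higher and 13 lower.

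The share of miR-16 reads over miR-15 reads also moved with tissue. Mir16.2 outnumbered its partner Mir15b 78.2-fold in brain, 62.6-fold in muscle and 46.9-fold in liver, from mean log2 ratios of 6.29, 5.97 and 5.55. In bone marrow, spleen and intestine the same ratio was 8.46, 9.51 and 8.04, and it was 6.00 in pancreas. The first 3 were called higher and the last 4 lower (permutation, adjusted p from 9.17e-05 to 0.0088). The Mir16.1 to Mir15a ratio was called in 1 tissue, pancreas, where it was lower at 1.87 ± 1.39 (SD, n = 12). Its other mean log2 ratios ran from 3.23 in intestine to 4.98 in the libraries labelled testis, and it split by index set as given above. Of 55 ratio tests 19 were called. As mature miR-16 is shared by the loci, these ratios set each miR-15 row against reads that either locus could supply.

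Animals 11 to 14 were compared with animals 1 to 10 within each tissue, and 16 of 40 differences were called by edgeR. Sex and pool move with the animal set and cannot be told apart from it. In kidney all 4 rows were higher in animals 11 to 14, against 4.26% of genes. Mir15b there ran from 95 to 325 CPM in the 4 libraries of animals 11 to 14, and from 12.6 through 26.5 to 47.9 CPM in the 10 others. The groups did not overlap, and the difference was 3.10 ± 0.48 log2 (SE, adjusted p = 1.65e-07). Mir15a ran from 226 to 392 against 74.3 to 159 CPM, a difference of 1.82, and Mir16.1 from 2059 to 4726 against 620 to 1349 CPM, a difference of 2.20. The Mir15a counts behind them were 108 to 603 in animals 11 to 14 and 762 to 1520 in the others.

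In liver all 4 rows were higher in animals 11 to 14 too, against 4.81% of genes: Mir15b by 2.13, Mir16.2 by 1.70, Mir16.1 by 1.67 and Mir15a by 1.24 log2. The miR-16 rows were higher in intestine, by 1.62 and 1.65 (2.44% of genes), and Mir15b in spleen by 1.54 (4.26% of genes). Animals 11 to 14 gave only 2 intestine libraries, with Mir16.1 at 941 and 3685 CPM. The lower of them lay within the 63.2 to 1536 CPM of animals 1 to 10. Mir15b was higher in brain by 1.38 (edgeR adjusted p = 0.0449, 6.62% of genes). Its brain libraries ran from 0 through a median of 51.5 to 342 CPM in animals 11 to 14. In animals 1 to 10 they ran from 6.75 through 45.1 to 89.3 CPM. With TMM the Mir15b brain difference was 0.27 (adjusted p = 0.828) and was not called. All 4 spleen rows were then called, Mir15b at 2.02 and the others at 1.42 to 1.43, against 9.78% of genes. Bone marrow went the other way, with Mir15a lower at -2.31 ± 0.60 (SE, adjusted p = 0.00109) and the miR-16 rows at -1.61 and -1.59, against 32.6% of genes. With TMM the bone marrow differences were -1.17 for Mir15a and -0.63 and -0.62 for the miR-16 rows, and none was called. In pancreas Mir15b was at 0 in all 3 libraries of animals 11 to 14, where 3 counts would be 45.3 to 293 CPM, against at most 152 CPM in the others, so no fold is given. The difference between animal sets varied over the 10 tissues for all 4 members by an interaction test in edgeR, with adjusted p from 2.52e-05 to 9.19e-05, as it did for 37.1% of genes.

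Marker levels moved with the animal set. In bone marrow, medians for animals 1 to 10 and 11 to 14 were 26409 and 8999 CPM for the leukocyte sum and 166783 and 38631 CPM for the erythroid sum, with no overlap between the groups. In kidney the leukocyte sum had medians of 269 and 388 CPM and the erythroid sum 17719 and 9592 CPM. In liver they were 842 and 983 CPM for the leukocyte sum and 19935 and 14968 CPM for the erythroid sum. In spleen, medians were 24266 and 34181 CPM for the leukocyte sum and 68639 and 19917 CPM for the erythroid sum. The summed level of the cell division clusters Mir17 to Mir92a-1 and Mir106b to Mir25 was lower in animals 11 to 14 with no overlap in 3 of these tissues. It ran from 41930 to 73929 against 13517 to 16530 CPM in bone marrow, from 38669 to 59984 against 16869 to 28818 CPM in spleen and from 2676 to 6308 against 1870 to 2577 CPM in kidney. In bone marrow 32.6% of all genes were called lower in animals 11 to 14. How many other rows separated without overlap was not counted in any tissue. Mir15b was called higher in animals 11 to 14 in spleen and kidney, so it went against the cell division clusters there. The part of these levels in the members' differences was not tested.

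**Figure D5:**
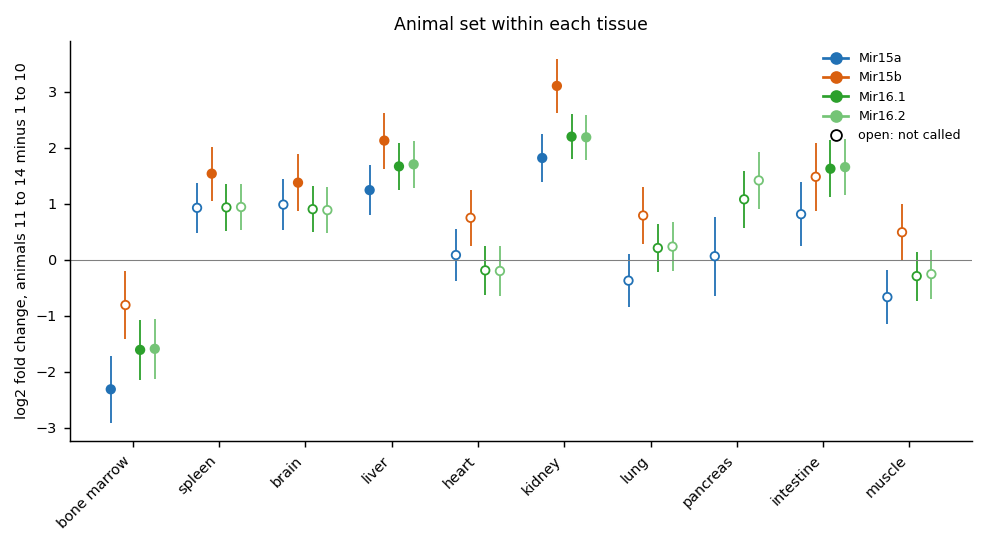
Log2 fold change of animals 11 to 14 over animals 1 to 10 within each tissue (points, with SE bars) for the 4 members, on library totals. Kidney and liver lie above 0 for all 4 members, bone marrow lies below 0, and Mir15b in pancreas is not drawn because its 3 libraries held no count.

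The listed relatives of the members had patterns of their own. Of 6 listed genes, 4 passed the low-count filter: Mir195a and its neighbour Mir497 on chromosome 11, and Mir322 and its neighbour Mir503 on chromosome X. Mir195b held 49 counts over all libraries. In lung all 4 were called higher (17.7% of genes were), with a median of 2.0 log2 against -0.17 for all genes, where none of the miR-15 and miR-16 rows was called. In spleen all 4 were higher (41.9% of genes were), with a median of 1.17 against 0.71 for all genes. In intestine all 4 were lower (18.1% of genes were), with a median of -1.71 against -0.31. Brain divided them: Mir195a was higher by 2.22 and Mir497 by 1.60 (46.7% of genes were higher), while Mir322 and Mir503 were lower at -1.24 and -1.16 (9.94% of genes). In heart Mir322 alone was higher, by 2.35 (11.6% of genes). In bone marrow Mir322 and Mir503 were higher by 1.51 and 1.5, where 51.0% of genes were higher around a median gene of 1.11. Mir195a was lower there at -1.56 (11.5% of genes).

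Mir195a, whose mature sequence is nearest to miR-16, averaged 1479 CPM in brain, 1238 in lung and 137 in bone marrow. Mir16.1 was highest in bone marrow, so the closest sequences did not share a tissue order. Over the 11 tissue means, the correlation with Mir16.1 was 0.31 for Mir195a, 0.47 for Mir497, 0.67 for Mir322 and 0.72 for Mir503. These are descriptions over tissues that share animals and scaling.

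The cell division clusters Mir17 to Mir92a-1 and Mir106b to Mir25, whose microRNAs are known for promoting proliferation, were counted beside the members across tissues. All 9 tested rows were called higher in bone marrow and in spleen, where 51.0% and 41.9% of all genes were, with medians of 2.28 and 2.25 log2 against 1.11 and 0.71 for all genes. All 9 were lower in muscle (25.8% of genes), with a median of -2.18, and 5 of 9 were lower in brain (9.94% of genes). Mir15b was called in each of these directions in bone marrow, spleen, muscle and brain.

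By the Pearson correlation of log2 mean CPM over the 11 tissues, among 1264 genes compared, the rows most like Mir15b were Mir93 (0.94), Gm23734 (0.94), Snora20 (0.90), Gm22265 (0.89) and Mir92.2 (0.88). Mir93 averaged 3143 CPM in bone marrow and 183 CPM in muscle, its lowest tissue. Those most like Mir15a were Mir140 (0.94), a tRNA row, Rnu11 (0.90), Mir451a (0.88) and Gm25848 (0.87), each lowest in the libraries labelled testis. Those most like both miR-16 rows were Mir1306, Mir6989, Mir6911, Mir421 and Mir3074.2, with correlations of 0.86 to 0.89, and 4 of these were at 0 in pancreas. Those 4 averaged only 0.767 to 2.33 CPM in bone marrow and 0.951 to 1.49 CPM in spleen. At such levels their zeros in the shallow pancreas libraries cannot be told apart from a lack of depth. Such correlations over tissue means describe shared order and depth, and carry no test.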

How the data were processed

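The authors deposited raw counts of reads per small RNA gene, not normalised. The tools and builds named, per the submitters' processing notes, are STAR 2.5.1, featureCounts and mm10/GRCm38; how strand and multi-mapping reads were handled is not given in the sources used here. There were 134 columns for 139 listed samples. A liver and a pancreas sample had no column, and more than 1 sample carried each testis title. Testis columns matched an animal but not 1 of its samples.

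CPM used library totals. Genes passing filterByExpr (minimum count 10) were fitted with edgeR 4.0.16 (limma 3.58.1, R 4.3.3), tissue against the mean of the others with pool as covariate, and adjusted over all genes. Ratios were tested by permutation (100000 resamples, or exact) in Python 3.11.15. Alternatives used TMM, DESeq2 1.42.0, other library sizes, no filter, no pool term, a replicate block, single pools and left-out libraries. Models were tested on simulated data.

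Libraries with the same number were taken as the same animal, by the animal numbers in the labels. Their deviations from the mean of their tissue, pool and index set correlated at 0.073 on average over 583 pairs. The value was -0.009 over 4166 pairs of other animals in the same set. This difference was small and not tested, so the pairing rests on the labels. The members and lists were chosen with earlier results of these data known. Genes named were the 4 members, 6 listed relatives, of which Mir503 and Mir497b do not carry the seed, and the 5 rows most like each member. Marker and cell division lists were given by their counts, with their genes named as list members.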

Additional observations from a re-analysis of the deposited data

Results flagged for a closer look

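The difference between animals 11 to 14 and animals 1 to 10 was not the same in all 10 tissues for any member. The interaction test in edgeR gave an adjusted p of 5.12e-05 for Mir15b, 2.52e-05 for Mir16.2, 3.01e-05 for Mir16.1 and 9.19e-05 for Mir15a. These are the results with kidney and liver higher and bone marrow lower in animals 11 to 14, and 37.1% of all genes passed the same test.

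The Mir15b to Mir15a log2 ratio differed between index sets in opposite directions in different tissues, with every library of 1 set above every library of the other. The low minus high difference was 1.38 in bone marrow, 1.40 in brain, 1.19 in heart, 0.818 in intestine and 1.13 in muscle, all in pool N469. It was -1.42 in kidney, -1.21 in lung and -1.66 in spleen, all in pool N467. The opposition between the tissues was not tested. Index set and animal move together apart from animal 5, and no share over all genes was counted.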

How the results depend on the processing

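Over 780 values of a member in a tissue under an alternative setting, 683 kept direction and call, 31 gained a call, 61 lost one and 5 reversed. The reversals were all within pool N541: Mir15a bone marrow at -0.48 and Mir15b brain at 0.54 with all tissues, and, without pancreas, Mir15a bone marrow at -0.56, Mir16.1 bone marrow at -0.062 and Mir16.2 bone marrow at -0.045. There the Mir16.2 to Mir15b pancreas ratio difference also reversed, to 0.66. Lower member calls numbered 7 in pool N541 without pancreas, against 13. That setting and the index-set term were chosen after seeing the data. Lower calls over all genes fell from 2427 to 1181 in pool N541 and 1565 there without pancreas, where fewer samples were fitted. Neighbouring tissues differed in 13 pairs with TMM against 8, with 3 of the 8 among the 13. Ratio calls were 5 in pool N541 and 38 with the animal as replicate block, against 19. With the replicate block in edgeR, member calls were 8 higher and 11 lower: Mir15a liver (0.96) and both miR-16 rows in the libraries labelled testis were lost, the latter at an adjusted p of 0.0634 for Mir16.1 testis and 0.0704 for Mir16.2 testis. Mir16.2 testis was also lost without Pancreas 11 (-1.43). The cause of these shifts was not tested. Calls for all 4 rows in spleen, Mir15b in bone marrow, Mir15a in muscle and in the libraries labelled testis, and both miR-16 rows in pancreas held under every alternative run. Animal-set calls numbered 14 to 17. Depth limits pancreas, where Mir15a and Mir15b rested on a handful of counts.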

Other observations

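Over the 11 tissue means, Mir15a and Mir16.1 correlated at 0.86, Mir15b and Mir16.1 at 0.68, and Mir15a and Mir15b at 0.52.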
